A study of Mus musculus with 18 samples.

Results

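The genes described here encode the receptors through which fast and modulatory transmitters act: the subunits of the GABA-A, glycine, nicotinic acetylcholine and ionotropic glutamate (AMPA, kainate and NMDA) channels, and the metabotropic glutamate receptors. They were chosen by symbol, as every gene beginning with *Gabr*, *Glra* or *Chrn*, together with *Glrb* and the numbered members of *Gria*, *Grik*, *Grin*, *Grid* and *Grm*. In the probe annotation used here 56 such genes had a probe of 1 symbol, on 117 probes, and no *Grid* gene did. A probe counted as detected on an array when its detection p, which compares its signal with negative control beads, was under 0.05, and a gene was tested when a probe was detected on 9 or more of 18 arrays. That left 27 receptor genes among the 11465 genes tested, and 29 that were not tested. Further genes of these families are not analysed here.

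The RNA came from the subventricular zone (SVZ), a germinal layer that lines the lateral ventricles and keeps neural stem cells in the adult. It was profiled on Illumina Mouse WG6-v2 bead arrays in 9 Tam-Idh1-KI and 9 control mice, 1 array per mouse. Tam-Idh1-KI animals carry an *Idh1* R132H allele that is expressed from the native promoter once Nes-Cre ER(T2), a tamoxifen-dependent Cre driven by nestin, has recombined it. Controls were *Idh1*+/+ littermates with or without the Cre transgene, and both groups, of strain C57BL/6, received tamoxifen at 50 mg/kg on 5 days at 5 to 6 weeks of age. The mice were 5 to 9 months old, with a median of 5 months in Tam-Idh1-KI and 6 in controls. Nestin is also active in SVZ cells other than stem cells, the study describes the allele as leaky without induction, and the RNA came from dissected tissue in which recombined and non-recombined cells were not separated. Arrays were hybridised on 2 days, with 6 mice per group on the earlier day and 3 on the later. The later arrays came from 3 female Tam-Idh1-KI mice and from 1 female and 2 male controls.

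As background, GABA-A and glycine receptors are pentameric chloride channels and nicotinic receptors pentameric cation channels. The ionotropic glutamate receptors are tetrameric cation channels, and the metabotropic ones signal through G proteins. In the SVZ, GABA released by neuroblasts acts on GABA-A receptors of the stem cells and restrains their division, AMPA, kainate and NMDA receptors and the metabotropic receptor mGluR5 have been described on migrating neuroblasts, and cholinergic neurons lie in and near the niche. In a dissected piece of tissue, the same transcripts also come from striatal and cortical neurons.

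Values are normalized log2 signals, and a fold change is the log2 difference between Tam-Idh1-KI and control fitted by limma with terms for the day of hybridisation and for sex. A p is called adjusted after Benjamini-Hochberg adjustment over the 11465 genes. Levels are compared only within a probe, since probes differ in how brightly they report a transcript. In bulk tissue fewer cells of a type and less RNA per cell cannot be told apart.

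Detection divided the families by subunit. The 3 AMPA genes *Gria1*, *Gria2* and *Gria3*, the kainate genes *Grik1*, *Grik2* and *Grik5*, the NMDA genes *Grin2b* and *Grin3a*, and the metabotropic genes *Grm4*, *Grm5*, *Grm7* and *Grm8* were detected on all 18 arrays. Of the GABA-A genes the same was true of *Gabra3*, *Gabrb1*, *Gabrb2*, *Gabrd* and *Gabrg1*, of the glycine genes of *Glra2* and *Glrb*, and of the nicotinic genes of *Chrna4*, *Chrnb1* and *Chrnb2*, which makes 22 genes in all. *Chrna10* and *Grik4* were detected on 17 arrays, *Grm3* on 14, *Gabrg3* on 12 and *Grin2a* on 11. These counts are of the brightest probe, and in several genes other probes fell under the filter. Only 1 of 7 probes passed it for *Grik1*, 1 of 4 for *Gabrg1* and 2 of 4 for *Gabrb2*. For *Chrnb1* 1 of 2 passed, and the other was detected on 1 array. The nicotinic family had the most genes under the filter, with 12 of its 16 not tested. They include the subunits of the muscle receptor (*Chrna1*, *Chrnd*, *Chrne* and *Chrng*), subunits known mainly from ganglia, habenula and midbrain (*Chrna2*, *Chrna3*, *Chrna5*, *Chrna6*, *Chrnb3* and *Chrnb4*), *Chrna9* of the hair cell receptor, which reached 8 arrays, and *Chrna7*, the homomeric α7 receptor, which was detected on 2 Tam-Idh1-KI and 4 control arrays.

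**Figure D1:**
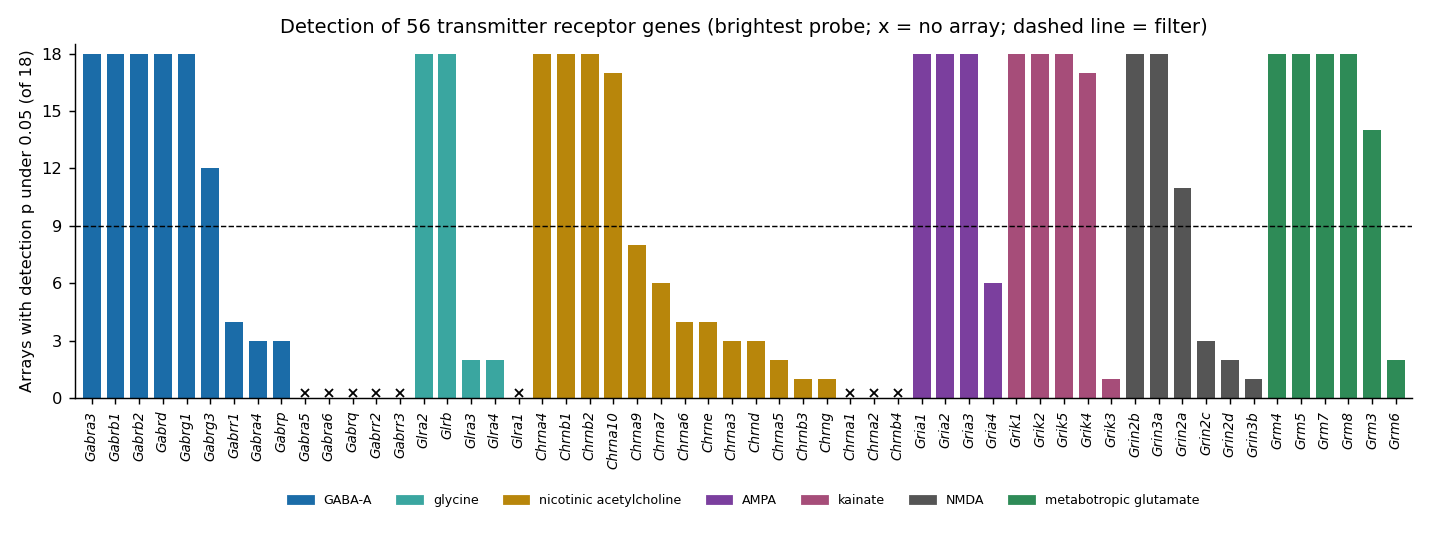
Number of arrays, of 18, on which the brightest probe of each of the 56 receptor genes had a detection p under 0.05 (bars, coloured by family; x marks 0 arrays; the dashed line is the filter at 9). The 22 genes at 18 arrays are spread over 7 families, and the nicotinic genes form the longest run under the line.

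Among the GABA-A genes, *Gabra4*, *Gabra5*, *Gabra6*, *Gabrp*, *Gabrq*, *Gabrr1*, *Gabrr2* and *Gabrr3* were not tested, and *Gabra5*, the α5 subunit of extrasynaptic receptors, *Gabra6*, known from cerebellar granule cells, *Gabrq*, *Gabrr2* and *Gabrr3* were detected on no array. *Glra1*, the adult spinal glycine receptor subunit, was also detected on none, and *Glra3* and *Glra4* on 2 each. *Gria4* reached 6 arrays, *Grik3* 1, *Grin2c* 3, *Grin2d* 2, *Grin3b* 1 and *Grm6*, known from retinal bipolar cells, 2. In all, 9 of the 56 genes were detected on no array, which says that their probes gave no signal above the control beads, and no more.

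No receptor gene passed the adjusted threshold of 0.05 between Tam-Idh1-KI and control, by limma over the 11465 genes, where 0.174% of all genes did (20 genes). The smallest adjusted p among the 27 was 0.384, of *Grm3*. At an unadjusted p under 0.05 there were 3 receptor genes, against 9.57% of all genes. *Grm3* was the higher one, in a direction that held 6.43% of all genes, and *Gabrb1* and *Glrb* were the lower ones, in a direction that held 3.14%. Of the 27, 10 lay above 0 and 17 below, with a median log2 fold change of -0.036, whereas 54.5% of all genes lay above 0, with a median of 0.013. With median scaling in place of quantile normalization the median of all genes rose to 0.119, so the signs of receptor genes near 0 rest on the scaling. The 95% confidence intervals reached no further than -0.76 (*Grik5*) and 0.69 (*Chrna10*), and the median standard error (SE) was 0.129, against 0.109 over all genes.

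**Figure D2:**
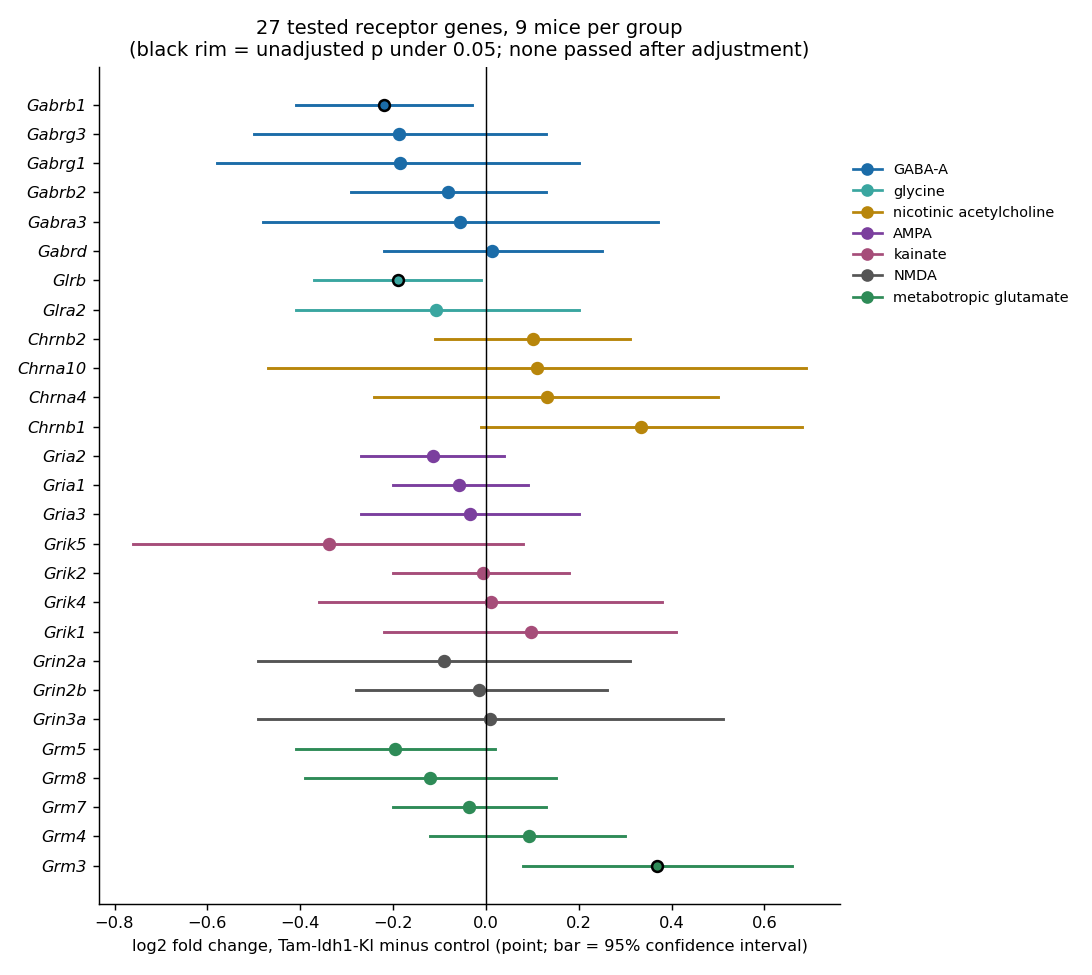
Log2 fold change of the 27 tested receptor genes between 9 Tam-Idh1-KI and 9 control mice (x axis; point, estimate; bar, 95% confidence interval), grouped and coloured by family. The intervals of *Gabrb1*, *Glrb* and *Grm3* (black rims) leave out 0 before adjustment, and no gene passed after it.

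Receptors for GABA had 1 gene above 0 and 5 below, with a median of -0.134. *Gabrb1*, the β1 subunit, ranged in Tam-Idh1-KI from 10.99 over a median of 11.17 to 11.55, and in controls from 11.11 over 11.38 to 11.75. The ranges overlapped widely, yet 8 of 9 Tam-Idh1-KI mice lay below the control mean of their hybridisation day. The fold change was -0.22 (SE 0.089, unadjusted p = 0.025, adjusted p = 0.447), with mean differences of -0.18 on the earlier day and -0.23 on the later. Its other detected probe gave -0.21. With median scaling *Gabrb1* was at -0.10 with an unadjusted p = 0.408, where the median of all genes was 0.119. In the reported fit without control replicate 8 the unadjusted p was 0.0588.

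*Gabrg3* and *Gabrg1*, which encode γ subunits, had fold changes of -0.19 each, with SEs of 0.151 and 0.185. The other detected probe of *Gabrg3* gave 0.01 (SE 0.143). On its brightest probe *Gabrg3* was detected on 6 arrays of each group. Tam-Idh1-KI mice ran from 4.67 over 6.23 to 6.98 and controls from 4.68 over 6.14 to 7.07, so the groups covered the same range. That range joins 2 levels, 6.008 to 7.069 on the earlier day and 4.674 to 5.255, near background, on the later. The mean differences of *Gabrg3* were -0.20 on the earlier day and 0.02 on the later. *Gabrb2*, the β2 subunit of the commonest synaptic receptors, ran from 7.72 over 8.21 to 8.41 in Tam-Idh1-KI and from 7.90 over 8.21 to 8.43 in controls (-0.08, SE 0.10). *Gabrd*, the δ subunit of extrasynaptic receptors with tonic currents, ran from 9.89 over 10.70 to 11.25 and from 9.97 over 10.76 to 11.14, at 0.01 (SE 0.112). For *Gabrd* an interval of -0.22 to 0.25 bounds the difference. *Gabra3*, the α3 subunit, was at -0.06 (SE 0.201).

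Of the 2 glycine receptor genes tested, both lay below 0, with a median of -0.149. *Glrb*, the β subunit that ties the receptor to the gephyrin scaffold, ranged from 7.76 over 7.96 to 8.31 in Tam-Idh1-KI and from 7.82 over 8.16 to 8.50 in controls, and 8 of 9 Tam-Idh1-KI mice were below the control mean of their day. The groups overlapped. The fold change was -0.19 (SE 0.085, unadjusted p = 0.0377, adjusted p = 0.490), at -0.18 and -0.21 on the 2 days and -0.14 for the other detected probe. It had an unadjusted p under 0.05 in 9 of 18 fits that each left out 1 array, with the highest, 0.0865, without control replicate 8, and in 15 of 31 alternatives in all. With median scaling *Glrb* was at -0.085, where the median of all genes was 0.119. *Glra2*, the subunit of immature receptors, ran from 9.87 over 10.43 to 10.90 and from 10.01 over 10.59 to 10.76 and was at -0.11 (SE 0.144).

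The 4 nicotinic acetylcholine receptor genes tested all lay above 0, with a median of 0.121, and none had an unadjusted p under 0.05. *Chrnb1*, the β1 subunit known from the muscle receptor, ranged from 5.41 over 6.62 to 7.53 in Tam-Idh1-KI and from 5.68 over 6.18 to 7.03 in controls, so that the Tam-Idh1-KI mice held both the lowest and the highest value. Its fold change was 0.33 (SE 0.165, unadjusted p = 0.058, adjusted p = 0.548). The mean differences, not adjusted for sex, were 0.15 on the earlier day and 0.70 on the later. The interaction term of limma for day, adjusted for sex, was 0.61 and did not pass (unadjusted p = 0.0908). As arrays were left out the unadjusted p of the fold change ran from 0.0016 without Tam-Idh1-KI replicate 1, the lowest mouse, to 0.147 without control replicate 1. It was under 0.05 in 3 of 18 fits. The fold change was 0.155 without background correction. *Chrnb2* and *Chrna4* form the commonest nicotinic receptor of brain. *Chrnb2* ran from 7.60 over 8.54 to 8.85 in Tam-Idh1-KI and from 7.49 over 8.41 to 8.82 in controls (0.10, SE 0.098). Its other detected probes gave 0.07 and -0.02. *Chrna4* ran from 6.25 over 7.40 to 7.83 and from 6.49 over 6.91 to 8.04 (0.13, SE 0.175), and its 3 detected probes gave 0.13, 0.21 and -0.11. *Chrna10*, otherwise known as a partner of *Chrna9* in hair cells, was at 0.11 (SE 0.277).

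All 3 AMPA receptor genes tested lay below 0, with a median of -0.059, and none had an unadjusted p under 0.05. *Gria2*, whose edited subunit makes the channel nearly impermeable to calcium, ran from 12.89 over 13.30 to 13.55 in Tam-Idh1-KI and from 13.16 over 13.39 to 13.57 in controls, with 7 of 9 Tam-Idh1-KI mice below the control mean of their day. Its fold change was -0.12 (SE 0.072, unadjusted p = 0.127), and its other detected probes gave -0.15 and 0.05. *Gria1* ran from 12.14 over 12.34 to 13.01 and from 12.13 over 12.43 to 12.92, at -0.06 (SE 0.069, 95% interval -0.20 to 0.09), the narrowest interval among the 27. *Gria3* was at -0.03 (SE 0.111). *Gria1* and *Gria3* turned positive, to 0.056 and 0.091, with median scaling, where the median of all genes was 0.119.

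Of the 4 kainate receptor genes 2 lay above 0 and 2 below, with a median of 0.002, and none had an unadjusted p under 0.05. *Grik5*, the KA2 subunit that needs a partner to form a channel, ran from 7.31 over 8.70 to 9.37 in Tam-Idh1-KI and from 7.41 over 8.90 to 10.08 in controls, and 8 of 9 Tam-Idh1-KI mice lay below the control mean of their day. That count rests in part on control replicates 1 and 6, at 9.979 and 10.08. The other controls of the first day ran from 8.778 to 9.351, under Tam-Idh1-KI replicate 6 at 9.373. The fold change of -0.34 (SE 0.198, unadjusted p = 0.105) was the most negative of the 27, and it was -0.20 without control replicate 1, whose value is among the 2 highest. The other detected probe of *Grik5* gave -0.21 (SE 0.205). Under the replicate block, in which mice of the same number are compared, *Grik5* had an unadjusted p = 0.0119. *Grik1* ran from 7.83 over 8.34 to 8.85 and from 7.74 over 8.46 to 8.72 (0.10, SE 0.150), with day differences of 0.27 and -0.30. *Grik2*, the GluK2 subunit, ran from 9.20 over 9.46 to 9.78 and from 9.23 over 9.53 to 9.74, at -0.01 (SE 0.090). *Grik4* was at 0.01 (SE 0.177).

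The 3 NMDA receptor genes tested, 1 above 0 and 2 below, had a median of -0.014, and none had an unadjusted p under 0.05. *Grin2a*, the GluN2A subunit of mature synapses, ran from 4.55 over 5.65 to 6.78 in Tam-Idh1-KI and from 4.71 over 6.05 to 6.82 in controls (-0.09, SE 0.192). *Grin2b*, the GluN2B subunit that predominates in immature neurons, ran from 10.71 over 11.29 to 12.03 and from 10.73 over 11.35 to 11.97 on its brightest probe, at -0.01 (SE 0.129). On that probe the ranges nearly coincided. *Grin3a*, a subunit that lowers calcium entry, was at 0.01 (SE 0.237).

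Of the 5 metabotropic glutamate receptor genes tested, 2 lay above 0 and 3 below, with a median of -0.036, and the family held the gene with the smallest p. *Grm3*, a group II receptor found on astrocytes as well as neurons, ranged from 5.14 over 5.72 to 6.11 in Tam-Idh1-KI and from 4.83 over 5.41 to 5.73 in controls, with 8 of 9 Tam-Idh1-KI mice above the control mean of their day. On the first day the lowest Tam-Idh1-KI value, 5.60, lay above the control values, and on the second day the groups overlapped. Its fold change was 0.37 (SE 0.137, unadjusted p = 0.0152, adjusted p = 0.384). The mean differences, not adjusted for sex, were 0.51 on the earlier day and 0.19 on the later. The interaction term of limma for day, adjusted for sex, was -0.47 (unadjusted p = 0.118). Its probe, the only one of *Grm3*, was detected on 8 Tam-Idh1-KI and 6 control arrays and so lies near the detection limit. The fold change of this dim probe was 0.111 without background correction and 0.193 in the authors' processed values. The unadjusted p was under 0.05 in 28 of 30 alternatives, all 18 that left out 1 array among them (0.000731 to 0.0378), and missed it with array weights (0.0814) and on the second day alone (0.509).

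*Grm5*, the group I receptor mGluR5, ran from 12.08 over 12.34 to 13.01 in Tam-Idh1-KI and from 12.32 over 12.63 to 13.18 in controls on its brightest probe, with 8 of 9 Tam-Idh1-KI mice below the control mean of their day. The fold change was -0.20 (SE 0.101, unadjusted p = 0.0673, adjusted p = 0.578). *Grm4* (0.09), *Grm8* (-0.12) and *Grm7* (-0.04), group III receptors that lie mostly on axon terminals, had SEs of 0.10, 0.128 and 0.079.

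**Figure D3:**
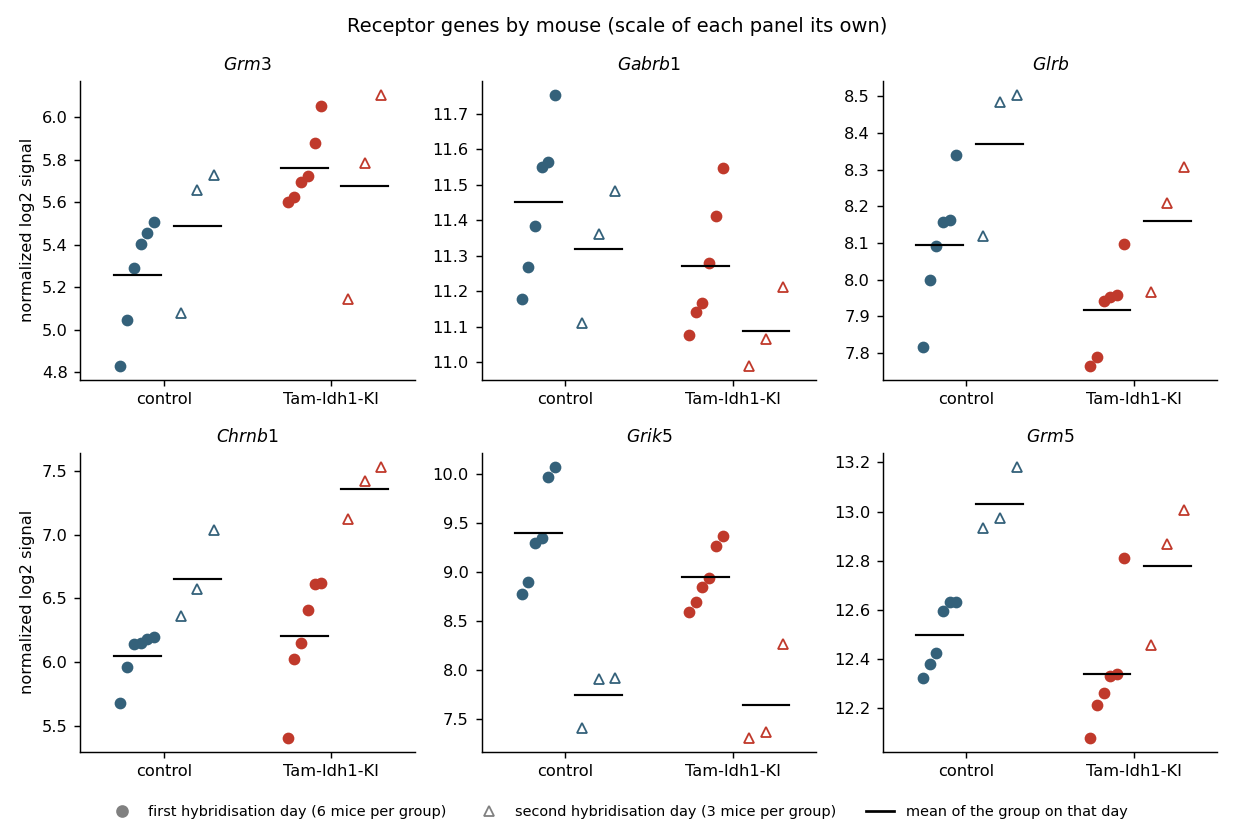
Normalized log2 signal (y axis, its own scale in each panel) of 6 receptor genes in each of 9 control and 9 Tam-Idh1-KI mice (circles, first hybridisation day; triangles, second; lines, mean of the group on that day). *Grm3* lies higher and *Gabrb1*, *Glrb*, *Grik5* and *Grm5* lower in 8 of 9 Tam-Idh1-KI mice against the control mean of the day, within overlapping ranges, and *Grik5* differs more between days than between groups. Control replicates 1 and 6 raise the first-day control mean of *Grik5*.

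The probes of a gene did not always give the same difference. Of the 27 genes 16 had several detected probes, and in 11 of these the probes shared a sign. They lay closest in *Gabrb1* (-0.22 and -0.21) and *Grm4* (0.09 for both). They differed by more than 0.3 in *Chrna4* (above), *Grin2b*, *Grm5* and *Grm7*. *Grm5* had 3 probes, all detected on 18 arrays and all assigned to the same transcript record in the annotation. Its second probe, by mean signal, ran from 8.73 over 9.36 to 9.71 in Tam-Idh1-KI and from 9.34 over 9.54 to 9.91 in controls, at -0.26 (SE 0.096, unadjusted p = 0.0162).

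The third and dimmest probe of *Grm5* ran from 6.48 over 7.00 to 7.24 in Tam-Idh1-KI and from 7.07 over 7.49 to 7.81 in controls. All 9 Tam-Idh1-KI mice lay below the control mean of their day, and only control replicate 5 fell within the Tam-Idh1-KI range. The fold change was -0.61 (SE 0.120, unadjusted p = 7.41e-05), -0.60 on each day. Adjusted over the 18460 probes that were detected and have 1 symbol, the p was 0.0602, so this probe did not pass either. Without control replicate 5 it passed (adjusted p = 0.0483), and without control replicate 1 the adjusted p was 0.214. The fold change of this probe was -0.47 in the authors' processed values (adjusted p = 0.0609), -0.33 without background correction (adjusted p = 0.0554) and -0.51 with median scaling (adjusted p = 0.166). When the kept probes of each gene were averaged, *Grm5* had the smallest adjusted p of the receptor genes, 0.0751.

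*Grin2b* had a second detected probe, which ran from 5.28 over 5.71 to 6.41 in Tam-Idh1-KI and from 5.69 over 6.24 to 6.78 in controls, with 8 of 9 Tam-Idh1-KI mice below the control mean of their day. Its fold change of -0.53 (SE 0.174, unadjusted p = 0.00686) stands beside -0.01 for the brightest probe, and over all such probes its adjusted p = 0.334. It was -0.34 in the authors' processed values and -0.19 without background correction. *Grm7* gave -0.04 on its brightest probe, -0.24 on the second (SE 0.098, unadjusted p = 0.0244) and 0.15 on the third (SE 0.229). Taken singly, 8 of the 52 detected receptor probes had an unadjusted p under 0.05, 7 of them lower, from *Gabrb1*, *Glrb*, *Grin2b*, *Grm5* and *Grm7*, and 1 higher, from *Grm3*. Over all such probes 3.78% were lower and 5.38% higher at that threshold, and 0.0975% passed after adjustment. What the probes of a gene read, and so why they differ, was not tested. The comparison of single probes was chosen after the values had been seen.

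**Figure D4:**
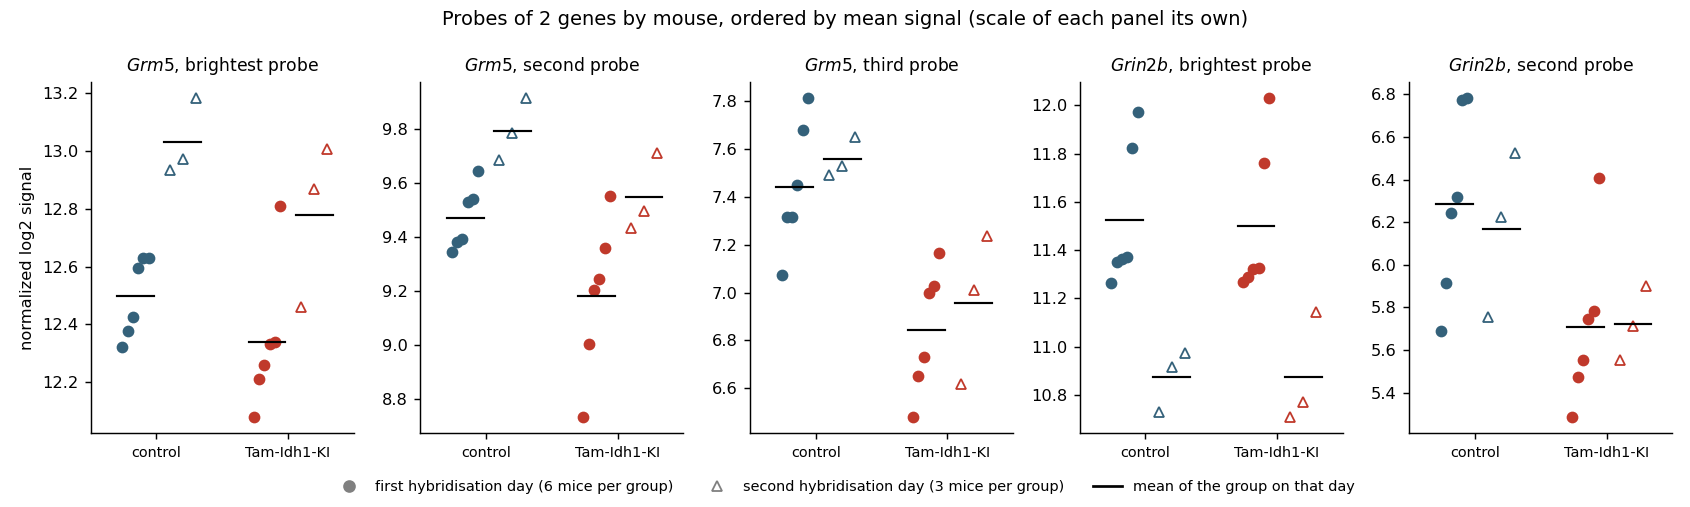
Normalized log2 signal (y axis, its own scale in each panel) of the 3 detected probes of *Grm5* and the 2 of *Grin2b* in 9 control and 9 Tam-Idh1-KI mice (circles, first hybridisation day; triangles, second; lines, mean of the group on that day). The third *Grm5* probe separates the groups except for control replicate 5, and the brightest *Grin2b* probe does not separate them.

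More receptor genes differed with hybridisation day than with genotype. Between the days 16 of the 27 differed at an adjusted p under 0.05, 8 higher and 8 lower on the second day, beside 63.8% of all genes. *Gabrg3* differed most, at -1.67 (adjusted p = 2.13e-07), and *Grik5* and *Grin2a* were at -1.50 and -1.47. On the second day *Gabrg3* ran from 4.674 to 5.255 and *Grin2a* from 4.547 to 4.866 over both groups. Those values are near the level of probes detected on few or no arrays, so background limits the size of these differences. *Gabrg1*, at 1.30, moved furthest upward. *Grm3* and *Gabrb1* did not pass for day (0.02 and -0.19). The mice of the first day were 5 to 6 months old and those of the second 7 to 9, and the mean level of oligodendrocyte markers was 11.46 to 12.60 on the first and 10.66 to 11.17 on the second. Day, age and the makeup of the tissue cannot be told apart here.

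The genotype difference had the same sign on both days in 15 of the 27 genes, a count given without its share over all genes. In a model with an interaction of genotype and day, 0 receptor genes had an unadjusted p under 0.05 (limma, smallest adjusted p of 1), against 2.90% of all genes. With an interaction of genotype and sex there was 1, *Gria2* (males minus females 0.30, unadjusted p = 0.0459), against 3.38% of all genes, and the smallest adjusted p was 0.997. Of the sex term itself 0 receptor genes had an unadjusted p under 0.05, and the smallest adjusted p was 0.999.

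**Figure D5:**
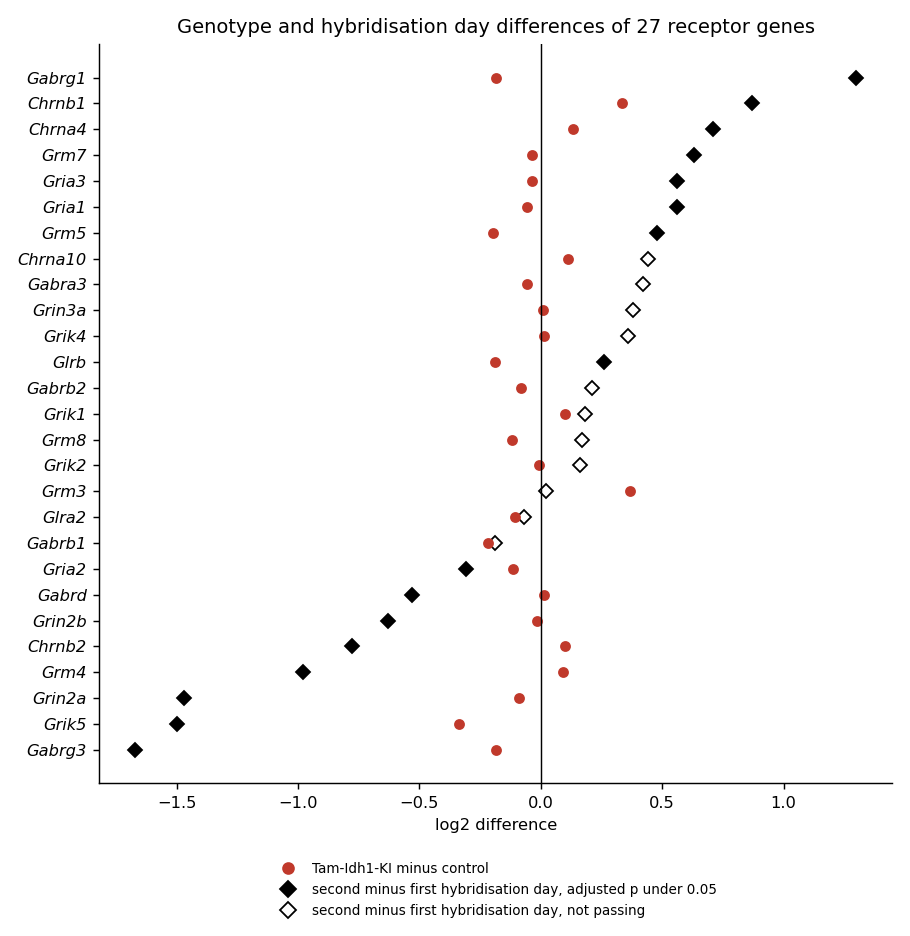
Log2 difference (x axis) of each of the 27 receptor genes between genotypes (circles, Tam-Idh1-KI minus control) and between hybridisation days (diamonds, second minus first; filled, adjusted p under 0.05). Genotype differences lie between -0.34 and 0.37, and day differences between -1.67 and 1.30.

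The proteins that anchor, traffic or modify these receptors were taken from a list of 52 genes, of which 40 were tested. At an unadjusted p under 0.05, 5 were lower and 0 higher, beside the 3.14% and 6.43% of all genes given above, and the smallest adjusted p of the list was 0.30. *Dlg4*, the PSD-95 scaffold of glutamate synapses, had group means of 9.30 in Tam-Idh1-KI and 9.74 in controls (-0.45, SE 0.147, unadjusted p = 0.00657). *Cacng7* (-0.54, SE 0.20) and *Cacng8* (-0.50, SE 0.238) encode transmembrane AMPA receptor regulatory proteins. *Rapsn*, the rapsyn anchor of muscle nicotinic receptors, was at -0.43 (SE 0.161), and *Cbln4*, of the synaptic organisers, at -0.47 (SE 0.202). Of these, 3 were read by dim probes. Means in Tam-Idh1-KI and control were 6.63 and 7.15 for *Cacng7*, detected on 17 arrays, and 6.12 and 6.59 for *Cacng8*, on 16. They were 6.26 and 6.68 for *Rapsn*, detected on 18. Of the 40, 11 lay above 0 and 29 below, with a median of -0.08 beside 0.013 over all genes. *Gphn*, the gephyrin scaffold to which *Glrb* binds, was at -0.03 (SE 0.069).

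Marker lists describe the tissue the receptors came from. SVZ lineage and niche markers were present, and so were those of neighbouring neurons: the 10 striatal neuron markers tested, *Drd1*, *Drd2* and *Ppp1r1b* among them, were detected on all 18 arrays, with a median fold change of -0.085. The mean level of 6 cortical neuron markers varied most, from 6.97 to 10.93 over the Tam-Idh1-KI mice and 8.44 to 10.06 over the controls, with a median fold change of -0.755 and 0 genes at an unadjusted p under 0.05 (smallest adjusted p of the list 0.558). General neuron markers were at a median of -0.085 and cholinergic neuron markers at -0.005. Neuroblast markers lay above 0 in 9 of 9 genes (median 0.25), beside 54.5% of all genes, and 5 of them were higher at an unadjusted p under 0.05, beside 6.43% of all genes. Ependymal markers lay above 0 in 7 of 7 genes (median 0.36), 5 of them higher at that threshold. Astrocyte markers had a median of -0.01 with members on either side, since *Slc1a2*, *Fgfr3* and *Gjb6* were lower and *Aqp4* higher at that threshold. Choroid plexus markers had a median of -0.10 and 1 member past it, *Folr1*, which was higher at 0.51. Oligodendrocyte markers were at a median of 0.185, with 1 of 6 higher at that threshold, progenitors of that lineage at 0.035 and microglia at 0.03, with 0 genes past it in the latter 2 lists. None of these markers passed after adjustment by limma. The part of these cell types in the receptor differences was not tested.

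Mean bead signals before normalization ran from 460.2 to 904.9 in Tam-Idh1-KI and from 454.2 to 678.7 in controls, with Tam-Idh1-KI replicates 2, 6 and 7 above the highest control, and 44.6% to 50.9% of probes were detected. *Idh1* itself had means of 9.39 ± 0.26 (SD, n = 9) and 9.74 ± 0.22 (SD, n = 9), a fold change of -0.37 (SE 0.10, adjusted p = 0.212). The array does not tell the mutant from the wild-type transcript, so this is no check of the labels.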

How the data were processed

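Gene expression was measured on 18 bead arrays. The intensity values deposited by the authors are linear and not normalized, and each has a detection p-value, also deposited by the authors. GenomeStudio is the tool named in the submitters' processing notes (version not given in the sources used here). A further table deposited by the authors holds processed log2 values of unstated normalization. They rise with the signal within each array (Spearman rho 1), and they were used as an alternative. The intensities were background corrected by means of the detection p-values, offset by 16, quantile normalized and log2 transformed with neqc (limma 3.58.1, R 4.3.3). Of the probes 34885 had 1 gene symbol, 18 several and 10378 none, and genes were named only from the first kind. A probe had to be detected (p under 0.05) on 9 or more arrays, and the brightest such probe stood for its gene. Quantile normalization and the background step can shift or shrink small differences of dim probes, and probe sequences were not used here.

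The model of limma (lmFit, eBayes) held genotype, sex and hybridisation day and was fitted to 11465 genes. The number of arrays limits the precision. The text names receptor genes at an adjusted or unadjusted p under 0.05, the smallest-p genes of each class, textbook subunits, genes whose probes differ by over 0.3, those not tested, and partners at an unadjusted p under 0.05. The receptor genes, the partner list and the 11 marker lists were chosen with earlier results of these data known. Mice carry the numbers 1 to 9 within a group in the labels, without a litter. Deviations of same-numbered arrays correlated over 0.1 in 9 of 9 pairs (mean 0.481), but same numbers share the hybridisation day, and within days 4 of 9 pairs did (mean 0.05), so the replicate block was an alternative. The other alternatives changed the background step, scaling, filter, choice of probe, covariates, weighting of arrays or test, took each day alone, or left out 1 array at a time. The fits of each day alone held no sex term. The fit was tested on simulated data. Standard errors and p-values rest on the spread between mice, and 0 sample columns were left unused.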

Additional observations from a re-analysis of the deposited data

How the results depend on the processing

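No receptor gene passed an adjusted p of 0.05 under any of 31 alternatives, nor when each kept probe was tested by itself on all 18 arrays, which was added after seeing the data. Over the 31 alternatives the smallest adjusted p was 0.0751, of *Grm5* with the mean of kept probes. The third probe of *Grm5*, tested by itself with limma, had an adjusted p of 0.0602 over the kept probes. It passed without control replicate 5 (adjusted p = 0.0483). The count of receptor genes at an unadjusted p under 0.05, 3 in the reported fit, was 5 without background correction, 6 with array weights, 1 on the first hybridisation day alone and 6 for each kept probe by itself. It ranged from 1 (without control replicate 8) to 6 (without Tam-Idh1-KI replicate 1) as arrays were left out, and was 5 without control replicate 3. With the replicate block it was 4 (*Chrnb1*, *Glrb*, *Grik5* and *Grm3*), of which 2 are among the reported 3. The paired fit, which does not rest on known litters, passed no receptor gene after adjustment (smallest adjusted p = 0.292).

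On the second hybridisation day alone the median of all receptor genes was -0.143, that of nicotinic genes 0.415, of AMPA genes -0.264 and of kainate genes -0.182. That fit held no sex term. Its 3 Tam-Idh1-KI mice were female and its controls were 1 female and 2 males, so genotype and sex are mixed there. With median scaling the median of all receptor genes was 0.056, that of AMPA genes 0.056 and of metabotropic genes 0.085, where the median of all genes is 0.119. The cause of these moves was not tested.

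Genes near 0 changed sign under some alternatives, none past the threshold. With median scaling these were *Gabra3* (0.043), *Gabrb2* (0.027), *Glra2* (0.020), *Gria1* (0.056), *Gria3* (0.091), *Grik2* (0.120), *Grin2b* (0.104) and *Grm7* (0.085). On the first day alone they were *Chrna10* (-0.076), *Gabra3* (0.091), *Gabrd* (-0.060), *Glra2* (0.010) and *Gria3* (0.076), and on the second day alone *Chrna4* (-0.143), *Gabrg3* (0.018), *Grik1* (-0.302), *Grik4* (-0.268), *Grin2b* (0.001), *Grin3a* (-0.475) and *Grm7* (0.031). With age added they were *Chrna10* (-0.052), *Grik2* (0.025), *Grin2b* (0.055) and *Grin3a* (-0.065), and with array weights *Gabrd* (-0.001), *Grik4* (-0.064) and *Grin3a* (-0.153). The authors' processed log2 values gave *Grik2* 0.016 and *Grik4* -0.003, the methods' t-test and the model of hybridisation day without sex *Gabrd* -0.031 and *Grik4* -0.049, and the replicate block *Gabrd* -0.016. As arrays were left out, *Chrna10* ranged from -0.047 to 0.25, *Gabra3* from -0.242 to 0.022, *Gabrd* from -0.047 to 0.052, *Gria3* from -0.117 to 0.027, *Grik2* from -0.063 to 0.032, *Grik4* from -0.126 to 0.132, *Grin2a* from -0.200 to 0.004, *Grin2b* from -0.102 to 0.089 and *Grin3a* from -0.165 to 0.101.

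Signal over background limits *Grm3*, *Gabrg3* and *Grin2a*, which were detected on 14, 12 and 11 of 18 arrays, and 9 mice per group left a median standard error of 0.129.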
